A study of Homo sapiens with 6 samples.

Results

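The genes described here are 38 genes that mark the epithelial cell of the renal proximal tubule: its transporters for phosphate, glucose, organic ions, acid and water, its endocytic receptors, its brush border enzymes, the transcription factors of the tubule lineage and its kidney cadherins. A row of the deposited table belonged to the set when its gene name equalled a listed name, and the rule used no expression value, though the names were listed with earlier results of these data known. All 38 genes were found, in 39 entries of the 58825 in the table, because GGT1 has 2 entries. The cells were HK-2, an immortalized line of human kidney tubular epithelial cells that stands for this cell type in culture. Poly(A) RNA was sequenced from 3 untreated Control samples and from 3 samples exposed to 25 μg/ml OX-LDL, oxidized low-density lipoprotein, for 48 h. The study's methods describe a low-serum starvation before OX-LDL was added, and whether the Control samples were starved too is not given in the sources used here. All values come from this single cell line.

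The proximal tubule takes back most of what the glomerulus filters. Its apical brush border carries sodium-coupled carriers for phosphate (SLC34A1, SLC34A3) and glucose (SLC5A2, SLC5A1), the sodium/proton exchanger SLC9A3, and the megalin-cubilin receptor (LRP2, CUBN) that brings filtered protein into the cell. On the blood side, SLC22A6 and SLC22A8 take up organic anions for secretion and SLC4A4 returns bicarbonate. HNF4A drives much of this programme, and PAX2, PAX8 and LHX1 mark the earlier nephron lineage from which the tubule forms. Many of these genes are known to be lost when tubular cells are taken into culture, and oxidized lipoprotein is used in such cells as a model of lipid injury.

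Levels are given in FPKM, fragments per kilobase of transcript normalized to library size, so that genes of different length can be compared. A gene was called expressed with a mean of at least 1 FPKM in the 3 Control libraries, low between 0.1 and 1 FPKM, and below that as under 0.1 FPKM. The 6 libraries held 62561347 to 76797607 deposited counts, at about 4 counts per read pair, and a count of 0 allows up to 0.156 to 0.192 CPM counted in read pairs, for counting error only. The detection limit was set at 12 counts, or 3 read pairs: "not detected" in a group stands for no library above it.

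In Control cells, 15 of the 38 genes were expressed, 6 were low and 17 were under 0.1 FPKM. Of the 17, 7 had no count in any of the 6 libraries (SLC5A12, SLC13A1, SLC13A2, SLC22A2, SLC22A6, SLC22A8 and LRP2), 4 were not detected in Control (AQP1, SLC47A1, SLC47A2 and SLC5A1) and 6 left a trace (AMN, SLC34A1, ANPEP, SLC13A3, HNF4A and CUBN). The expressed share was 39.5%, beside 54.4% of the 19727 protein coding entries of the table, and the share with no count in any library was 18.4%, beside 17.3%. With the limit at 0.5 FPKM 18 genes were expressed, with 1 FPKM required in each Control library 14 were, and with FPKM rescaled to TPM and a mean of at least 1 TPM 20 were. Of 12 markers of the proximal tubule, 3 were expressed, GGT1, PAX8 and CDH6, and 9 were under 1 FPKM, 8 of them under 0.1. The cells were epithelial by KRT8 (37.5 FPKM in Control), KRT18 (39.4) and EPCAM (51.2), whereas CDH1, the gene of E-cadherin, was at 0.0968 FPKM. Of these markers, the carriers SLC34A1, SLC5A2, SLC22A6 and SLC22A8, the receptors LRP2 and CUBN and the water channel AQP1 were low or at or near 0, while other carriers, SLC20A1, SLC20A2, SLC4A4, SLCO4C1, SLC17A1 and SLC17A3, were expressed.

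**Figure D1:**
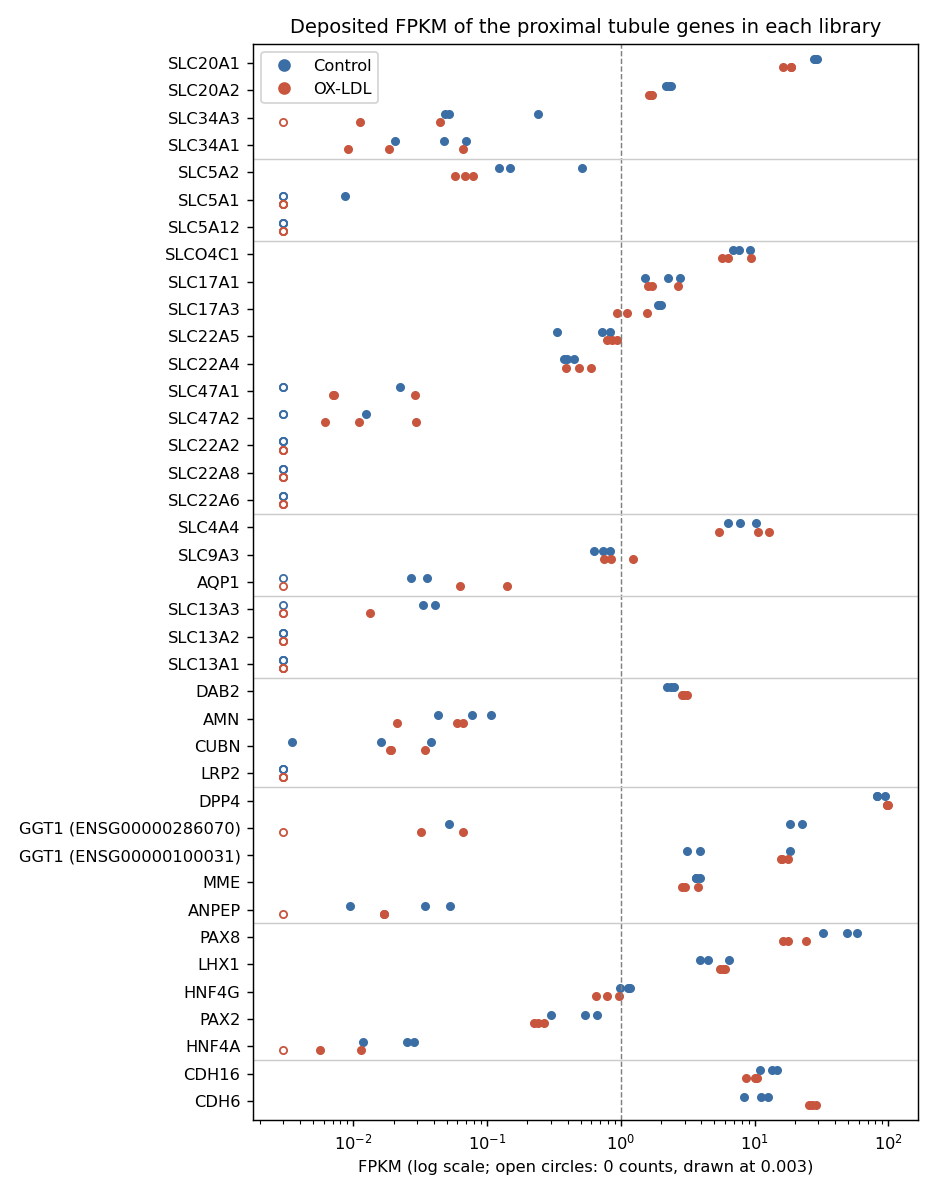
Deposited FPKM (log axis) of each of the 39 entries in the 3 Control and the 3 OX-LDL libraries, 1 point per library, grouped by role, with open circles for counts of 0 and a dashed line at 1 FPKM. DPP4, PAX8 and SLC20A1 lie at the high end, and SLC22A6, SLC22A8 and LRP2 have open circles only.

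The brush border enzymes were among the best represented. DPP4, the dipeptidyl peptidase that also cleaves incretin hormones, was at 81.9, 81.6 and 94.2 FPKM in the Control libraries, above 98.7% of the protein coding entries. MME, neprilysin, was at 3.93, 3.66 and 3.61 FPKM. ANPEP, the abundant aminopeptidase N of the kidney brush border, had 23, 16 and 4 counts.

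Phosphate carriers divided by family. The housekeeping carriers SLC20A1 and SLC20A2 were expressed, at 28.5 ± 0.922 and 2.28 ± 0.0967 FPKM (SD, n = 3). SLC34A1, which carries most of the phosphate taken up by the proximal tubule, had 19, 30 and 9 counts in Control and 23, 4 and 8 in OX-LDL. SLC34A3 had 11, 10 and 45 counts in Control and 0, 10 and 3 in OX-LDL, and its Control mean of 0.113 FPKM came largely from replicate 3.

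None of the members that carry glucose, lactate, sulfate or dicarboxylates was expressed, and carriers of these solutes outside the set are not covered here. SLC5A2, the main glucose carrier of the early proximal tubule, was low, with 50, 207 and 56 counts in Control. SLC5A1 had 4 counts in 1 of 6 libraries, SLC5A12 none, and of SLC13A1, SLC13A2 and SLC13A3 a trace of SLC13A3 was seen, at most 22 counts.

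Among the 10 carriers of organic ions, 3 were expressed. SLCO4C1, an organic anion carrier, was at 9.29, 7.61 and 6.88 FPKM in Control, SLC17A1 at 2.24, 1.51 and 2.75 FPKM, and SLC17A3, which exports urate, at 1.93, 1.91 and 2.00 FPKM. The carnitine carrier SLC22A5 and its neighbour SLC22A4 were low, at 0.629 and 0.407 FPKM. The organic anion carriers SLC22A6 and SLC22A8 and the cation carrier SLC22A2 had 0 counts in every library. The cation exporters SLC47A1 and SLC47A2 had at most 18 counts in any library.

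Of the genes for acid, base and water, the bicarbonate cotransporter SLC4A4 was expressed at 6.37, 7.81 and 10.3 FPKM, and SLC9A3 was low at 0.734 FPKM. AQP1, the water channel of the proximal tubule, had 0, 11 and 8 counts in Control and 16, 0 and 45 in OX-LDL. Of the endocytic apparatus, DAB2, the clathrin adaptor that binds the tail of megalin, was expressed at 2.35 ± 0.139 FPKM (SD, n = 3). Megalin itself, LRP2, had no count in any library. CUBN had 19, 46 and 4 counts in Control and 19, 23 and 42 in OX-LDL, and its partner AMN 45, 33 and 17 and then 8, 26 and 29. The adaptor was thus present without detectable megalin message at this depth.

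Of the lineage factors, PAX8 and LHX1 were expressed and PAX2 was low. HNF4G was expressed too, while HNF4A was nearly absent. PAX8 was at 49.2, 58.0 and 32.6 FPKM in Control, above 97.0% of the protein coding entries, LHX1 at 4.50, 3.92 and 6.48 FPKM, and HNF4G at 1.14, 0.988 and 1.18 FPKM. PAX2 was low, at 0.302 to 0.661 FPKM. HNF4A had 8, 19 and 16 counts in Control and 0, 4 and 8 in OX-LDL, where it was not detected. Both cadherins were expressed in Control, the kidney-specific CDH16 at 14.7, 13.6 and 11.0 FPKM and CDH6 at 12.7, 8.30 and 11.2 FPKM.

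To show what the promoters of expressed and undetected members look like, windows of 300 bases, 250 before to 50 after the transcription start, were taken from RefSeq on GRCh38.p14. They are given 5′ to 3′ on the gene's strand, with each CpG dinucleotide in capitals. SLC20A1 (chr2:112645689-112645988 (+ strand)) and PAX8 (chr2:113278872-113279171 (- strand)) are the members that fell with more than 10 FPKM in Control, DAB2 (chr5:39424931-39425230 (- strand)) is a member that rose, and LRP2 (chr2:169362485-169362784 (- strand)) and SLC22A6 (chr11:62984918-62985217 (- strand)) had no count.
SLC20A1: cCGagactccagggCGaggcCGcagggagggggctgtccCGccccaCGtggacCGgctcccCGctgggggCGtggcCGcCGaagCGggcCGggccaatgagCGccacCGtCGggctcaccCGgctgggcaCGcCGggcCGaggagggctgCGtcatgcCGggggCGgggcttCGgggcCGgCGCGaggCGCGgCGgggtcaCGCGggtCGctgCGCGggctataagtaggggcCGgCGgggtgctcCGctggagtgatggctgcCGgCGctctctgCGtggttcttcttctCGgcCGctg
PAX8: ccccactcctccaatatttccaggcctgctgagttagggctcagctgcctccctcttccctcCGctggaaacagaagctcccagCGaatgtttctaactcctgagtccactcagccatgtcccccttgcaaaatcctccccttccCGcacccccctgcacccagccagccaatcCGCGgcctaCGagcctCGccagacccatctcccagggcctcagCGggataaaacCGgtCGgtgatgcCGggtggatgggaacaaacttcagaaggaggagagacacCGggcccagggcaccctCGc
DAB2: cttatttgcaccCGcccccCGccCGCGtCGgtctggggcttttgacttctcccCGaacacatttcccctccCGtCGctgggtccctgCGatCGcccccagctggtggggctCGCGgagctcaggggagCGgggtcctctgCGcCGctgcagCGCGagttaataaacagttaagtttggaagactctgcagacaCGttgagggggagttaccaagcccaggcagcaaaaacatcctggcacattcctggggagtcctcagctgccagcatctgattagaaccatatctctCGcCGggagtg
LRP2: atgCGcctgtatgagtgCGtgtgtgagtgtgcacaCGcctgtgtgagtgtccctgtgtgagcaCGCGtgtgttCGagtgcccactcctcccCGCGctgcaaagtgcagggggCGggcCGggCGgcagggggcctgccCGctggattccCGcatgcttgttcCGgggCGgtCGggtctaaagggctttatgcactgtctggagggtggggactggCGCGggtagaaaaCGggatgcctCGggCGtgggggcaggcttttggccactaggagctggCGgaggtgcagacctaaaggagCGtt
SLC22A6: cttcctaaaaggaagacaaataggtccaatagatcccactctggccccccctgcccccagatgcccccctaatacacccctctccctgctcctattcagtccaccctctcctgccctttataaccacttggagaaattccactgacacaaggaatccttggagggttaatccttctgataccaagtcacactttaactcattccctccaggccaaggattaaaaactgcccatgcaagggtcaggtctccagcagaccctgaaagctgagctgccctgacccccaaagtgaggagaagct

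These windows held 42 CpG for SLC20A1, 13 for PAX8, 20 for DAB2, 23 for LRP2 and 0 for SLC22A6. Windows were on hand for 30 of the 38 genes, 45 windows in all, since some genes have several starts. The median number of CpG was 19 in the 18 windows of expressed members, 14 in the 9 windows of low members and 8.5 in the 18 windows under 0.1 FPKM, beside 14 over all 35116 windows. LRP2, with 23 CpG and no count, lay above the median of the expressed members, and SLC17A1 and SLC17A3, expressed with 2 CpG each, lay below that of the members under 0.1 FPKM. The windows came from 10 expressed members, 6 low members and 14 members under 0.1 FPKM, and the windows of 1 gene can overlap. Genes with several starts weigh more in these medians. SLC4A4 gave 5 and MME 4 of the 18 windows of expressed members, and SLC34A3 gave 3 of the 9 windows of low members. The order of the medians is thus one of windows and not of genes, and the numbers are a description with no test.

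The second question was how these genes differed after OX-LDL. In all, 20 genes in 21 entries reached the minimum mean of 0.1 FPKM over the 6 libraries and were tested, and 18 genes, with at most 46 counts in any library, did not. By edgeR's quasi-likelihood test with Benjamini-Hochberg adjustment over all 19510 genes tested, 6 of the 21 entries passed an adjusted p of 0.05, beside 15.3% of all genes. The cadherin CDH6 and the adaptor DAB2 rose, 2 entries beside 7.91% of all genes called higher. PAX8, SLC20A1, SLC20A2 and 1 of the 2 entries of GGT1 were lower, 4 entries beside 7.42% called lower. The GGT1 call did not remain when its entries were summed, so 5 genes were called. The median log2 fold change of the 21 entries was -0.12, beside -0.0043 over all genes. Nothing in the labels says that the 3 samples of a group were separate cultures. The p-values set the group difference against the spread between these samples, which may not be the spread between cultures.

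**Figure D2:**
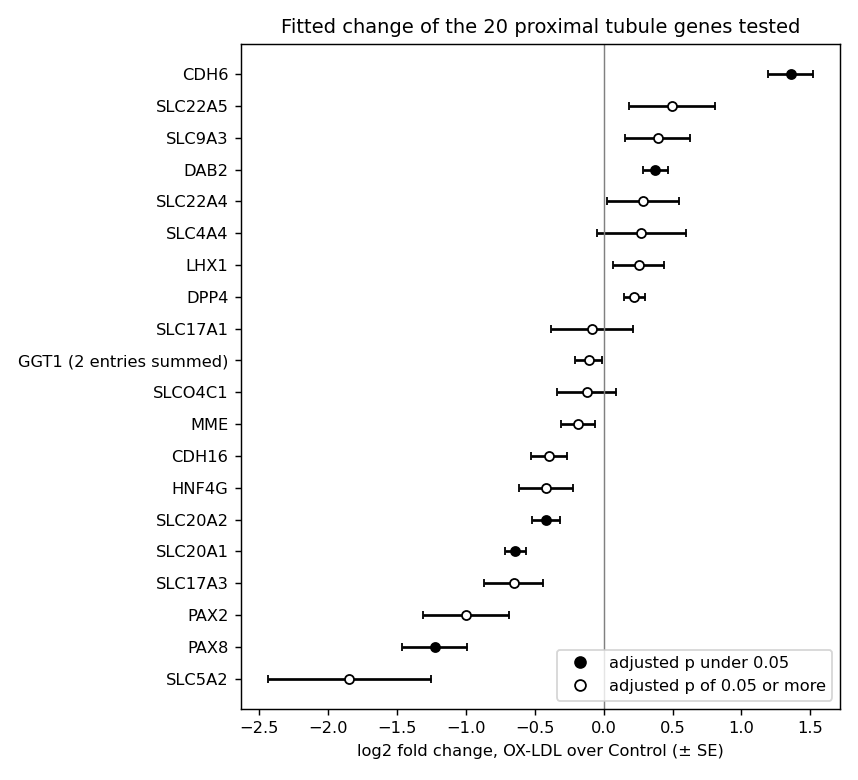
Fitted log2 fold change, OX-LDL over Control, with its SE from edgeR, for the 20 genes tested (n = 3 per group). The 2 entries of GGT1 are summed; filled points have an adjusted p under 0.05: CDH6 and DAB2 to the right of 0, and SLC20A2, SLC20A1 and PAX8 to the left.

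CDH6, K-cadherin, a cadherin of the proximal tubule and its precursors, had the largest change of the 5. Its Control libraries were at 12.7, 8.30 and 11.2 FPKM and its OX-LDL libraries at 25.5, 28.8 and 26.7 FPKM. The lowest OX-LDL library was above the highest Control library. The log2 fold change was 1.36 ± 0.16 (SE; adjusted p = 0.00475, edgeR, n = 3 per group), a 2.56-fold rise. CDH6 passed the adjusted threshold in all 14 other fits, those without 1 library included. A pseudogene on the same strand inside CDH6 (chr5:31193686-31329146 on GRCh38), DUX4L51, had 93, 80 and 7 counts in Control and 517, 372 and 632 in OX-LDL, against 9213 to 13863 and 23392 to 32503 counts of CDH6.

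CDH16, the other kidney cadherin, was not called. Its Control libraries were at 14.7, 13.6 and 11.0 FPKM and its OX-LDL libraries at 10.1, 8.67 and 10.4 FPKM. Every OX-LDL library was below every Control library. The log2 fold change was -0.40 ± 0.13 (SE) and did not pass the test (adjusted p = 0.0919, edgeR). It passed by DESeq2 (adjusted p = 0.0484) and by edgeR when Control replicate 3 was left out (0.0472). DESeq2 called more genes throughout, 2292 higher and 2138 lower over all genes, against 1543 and 1448 by edgeR. In Control the levels of CDH6 and CDH16 overlapped, and in OX-LDL CDH6 was above CDH16 in each library.

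PAX8, the paired-box factor of the renal lineage, fell. It was at 49.2, 58.0 and 32.6 FPKM in Control and at 17.8, 24.2 and 16.3 FPKM in OX-LDL, with no overlap between the groups. The log2 fold change was -1.23 ± 0.24 (SE; adjusted p = 0.0182, edgeR, n = 3 per group), so Control was 2.34-fold higher. The call was lost without any 1 of 4 libraries: the adjusted p was 0.0541 when Control replicate 1 was left out, 0.0609 for Control replicate 2, 0.0709 for OX-LDL replicate 1 and 0.0691 for OX-LDL replicate 3, with log2 fold changes of -1.43 to -1.05 over the 6 fits without 1 library. PAX8-AS1, which overlaps PAX8 (chr2:113215997-113278921) on the opposite strand, had 6276, 5574 and 2926 counts in Control and 1312, 2201 and 1499 in OX-LDL, and it fell too (log2 fold change -1.50 ± 0.28, SE; adjusted p = 0.0159, edgeR). The labels' protocol has a dUTP step, which keeps strand, but the strand setting of the counting is not given in the sources used here, so reads of the 2 genes may have been shared.

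The other transcription factors tested among the members did not pass by edgeR. PAX2 was at 0.538, 0.661 and 0.302 FPKM in Control and 0.225, 0.268 and 0.238 FPKM in OX-LDL, with no overlap (a fitted level 2.00-fold higher in Control; adjusted p = 0.0781, edgeR). HNF4G was at 1.14, 0.988 and 1.18 FPKM and then 0.792, 0.971 and 0.653 FPKM, again without overlap (-0.42 ± 0.20; adjusted p = 0.210, edgeR). LHX1 was at 4.50, 3.92 and 6.48 FPKM in Control and 5.80, 6.04 and 5.54 FPKM in OX-LDL, and its groups overlapped (0.25 ± 0.19; adjusted p = 0.423, edgeR). Of the 4 factors tested, edgeR called PAX8 only, and DESeq2 called PAX2 as well (adjusted p = 0.0173). The adjusted p of PAX2 by edgeR was 0.0286 when Control replicate 3 was left out.

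Both sodium-phosphate carriers of the SLC20 family fell. SLC20A1 was at 28.5, 29.5 and 27.6 FPKM in Control and 18.7, 18.6 and 16.3 FPKM in OX-LDL. The groups stood well apart, with a log2 fold change of -0.64 ± 0.08 (SE; adjusted p = 0.00478, edgeR, n = 3 per group), Control being 1.56-fold higher, and the gene passed in all 14 other fits. SLC20A2 was at 2.39, 2.27 and 2.19 FPKM in Control and 1.68, 1.71 and 1.62 FPKM in OX-LDL. Its groups did not overlap either, and its log2 fold change was -0.42 ± 0.10 (SE; adjusted p = 0.0386, edgeR). The call of SLC20A2 was lost whichever library was left out, with adjusted p-values of 0.0544 to 0.119 by edgeR and log2 fold changes of -0.45 to -0.38. It was also above 0.05 with no minimum level (0.0604) and with the replicate block (0.101), 8 of the 14 other fits in all.

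DAB2 was at 2.37, 2.48 and 2.20 FPKM in Control and 3.11, 2.88 and 2.97 FPKM in OX-LDL, every OX-LDL library lying above every Control library. The log2 fold change was 0.38 ± 0.09 (SE; adjusted p = 0.0377, edgeR, n = 3 per group). Without OX-LDL replicate 2 the adjusted p was 0.0478, and without any other library it was above 0.05, up to 0.115. DAB2 was above 0.05 in 10 of the 14 other fits, those with library sizes only (0.0513), limma (0.0744 and 0.0788), no minimum level (0.0669) and the replicate block (0.0946) included. LRP2 stayed at 0 counts in all OX-LDL libraries.

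**Figure D3:**
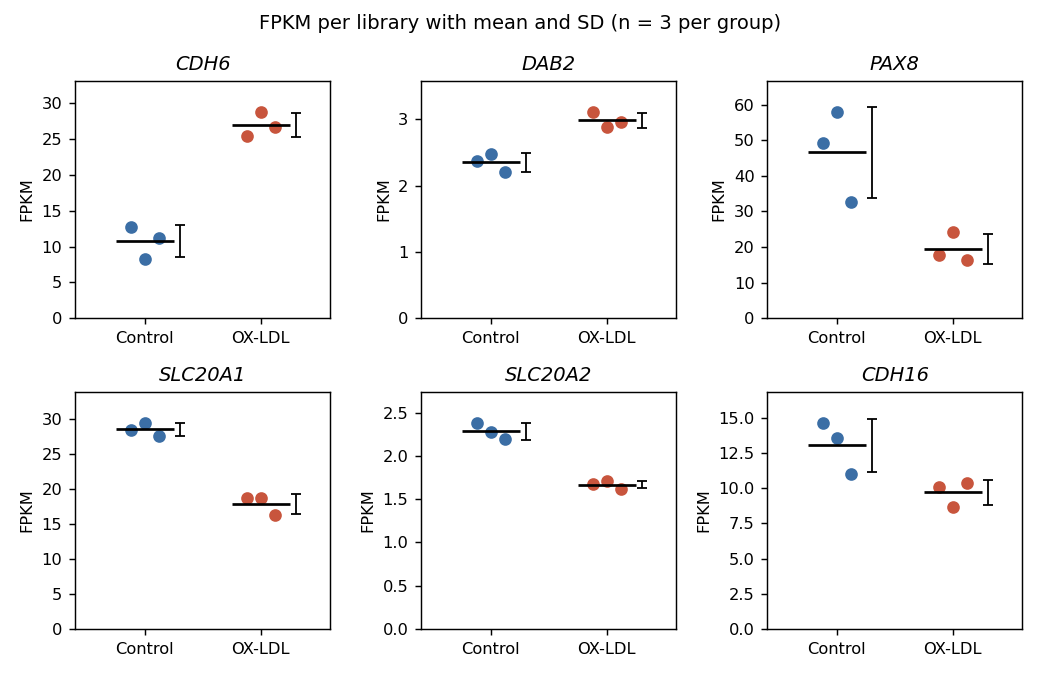
FPKM in each library (points) with the group mean (horizontal line) and SD (bar), n = 3 per group, for the 5 genes called and CDH16, each on its own linear axis from 0. In the 6 panels no OX-LDL point falls within the range of the Control points; CDH6 and DAB2 lie higher in OX-LDL and the others lower.

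GGT1, gamma-glutamyltransferase, the brush border enzyme that splits glutathione, has 2 entries on the same strand of chr22 that share 34177 bases. The entry ENSG00000286070 (24556007-24628987) had 5071, 15 and 5830 counts in Control and 16, 0 and 10 in OX-LDL. The entry ENSG00000100031 (24594811-24629001) had 1215, 7126 and 1392 counts in Control and 5122, 7063 and 6375 in OX-LDL. Control replicate 2 was thus like the OX-LDL libraries in both entries. Taken singly, the longer entry was called lower (adjusted p = 0.0371, edgeR; log2 fold change -8.66 ± 2.10, SE, with a library at 0) and the shorter one had a log2 fold change of 1.02 ± 0.63 (adjusted p = 0.336, edgeR), or 2.25 with an adjusted p of 0.00296 when Control replicate 2 was left out. Summed, they had 6286, 7141 and 7222 counts in Control and 5138, 7063 and 6385 in OX-LDL, or 93.4 ± 9.50 and 86.6 ± 5.67 CPM (SD, n = 3). The sum overlapped between the groups and did not pass the test (log2 fold change -0.11 ± 0.10, SE; adjusted p = 0.514, edgeR), a fit added after the data had been seen. The share of counts in the longer entry was 80.7% in Control replicates 1 and 3 and at most 0.311% in the other libraries.

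**Figure D4:**
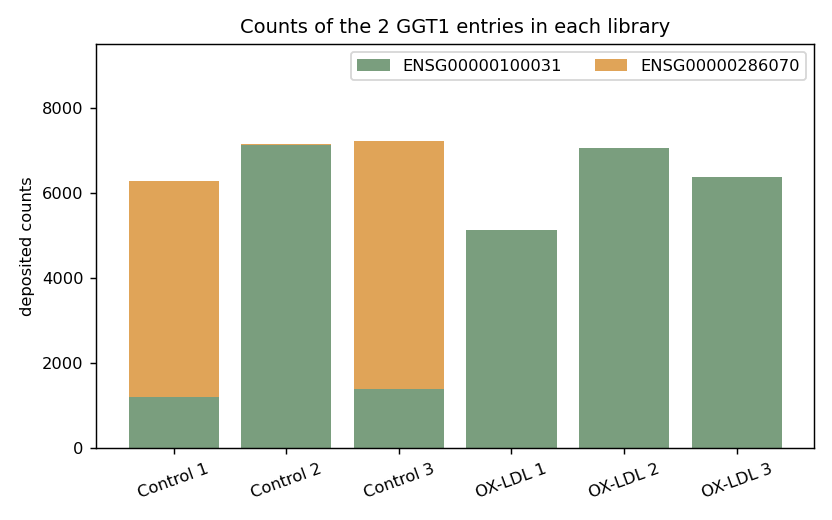
Deposited counts of the 2 GGT1 entries, stacked, in each of the 6 libraries. The stacks range from 5138 to 7222 counts, and ENSG00000286070 takes most of them in Control 1 and Control 3 only.

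DPP4 and MME, the other brush border enzymes tested, were not called. DPP4 was at 81.9, 81.6 and 94.2 FPKM in Control and 96.9, 99.7 and 97.3 FPKM in OX-LDL, without overlap (log2 fold change 0.22 ± 0.08, SE; adjusted p = 0.101, edgeR), and its adjusted p was 0.0498 when Control replicate 3 was left out. MME was at 3.93, 3.66 and 3.61 FPKM and then 2.85, 3.78 and 3.00 FPKM, with overlap (-0.19 ± 0.13; adjusted p = 0.377, edgeR).

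None of the 5 organic ion carriers tested passed the adjusted threshold by edgeR, while SLC17A3 alone had an unadjusted p under 0.05 (1 gene) and was called lower by DESeq2 (1 gene). SLC17A3 was at 1.93, 1.91 and 2.00 FPKM in Control and 0.938, 1.56 and 1.11 FPKM in OX-LDL, every OX-LDL library lying lower (log2 fold change -0.65 ± 0.21, SE; adjusted p = 0.0853, edgeR), and its adjusted p was 0.0220 when OX-LDL replicate 2 was left out. Its neighbour SLC17A1 was at 2.24, 1.51 and 2.75 FPKM and then 1.71, 2.67 and 1.61 FPKM, with overlap (-0.09 ± 0.30; adjusted p = 0.885, edgeR). SLCO4C1 was at 9.29, 7.61 and 6.88 FPKM in Control and 5.67, 9.38 and 6.28 FPKM in OX-LDL, also with overlap (-0.12 ± 0.21; adjusted p = 0.749, edgeR). For SLC17A1 and SLCO4C1 the sign of the fitted difference turned when single libraries were left out. SLC22A5 and SLC22A4 had log2 fold changes of 0.49 ± 0.31 and 0.28 ± 0.26, both with overlapping groups. P4HA2, on the opposite strand to SLC22A4 and overlapping it, was called higher (log2 fold change 1.01; adjusted p = 0.0107, edgeR).

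Of the remaining carriers tested, SLC5A2 had the largest fitted difference and did not pass. Its 50, 207 and 56 counts in Control and 24, 25 and 33 in OX-LDL did not overlap, and Control replicate 2 held most of the Control counts (log2 fold change -1.85 ± 0.59, SE; adjusted p = 0.0826, edgeR). With Control replicate 2 left out, the log2 fold change was -0.94 (adjusted p = 0.215, edgeR), and DESeq2 on all libraries called the gene lower (adjusted p = 0.0168). C16orf58, on the opposite strand and overlapping SLC5A2, had 3642, 3334 and 3569 counts in Control and 3224, 4505 and 4535 in OX-LDL. AC026471, placed likewise, had 0, 46 and 9 counts in Control and 16, 7 and 13 in OX-LDL. Reads may have been shared with SLC5A2, which was not tested. SLC4A4 was at 6.37, 7.81 and 10.3 FPKM in Control and 5.43, 12.9 and 10.6 FPKM in OX-LDL, with a wide overlap (0.27 ± 0.32; adjusted p = 0.628, edgeR). SLC9A3 had a log2 fold change of 0.39 ± 0.24 and overlapping groups.

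A looser rule was a fold above 2 or below 0.5 with an unadjusted p under 0.05 by edgeR. The study's results give these fold limits with a p-value under 0.05, and its methods name adjusted p-values. Whether its p was adjusted is thus not clear, and the looser rule may differ from the study's. By it, CDH6 was called higher (1 entry, beside 3.19% of all genes). PAX8, PAX2, SLC5A2 and the longer GGT1 entry were called lower (4 entries, beside 3.16%), 5 of 21 entries in all beside 6.36%. PAX2 lay at the fold limit, 2.00-fold higher in Control. When Control replicate 2 was left out, the 4 lower entries became 2, and SLC5A2 no longer passed (unadjusted p = 0.0532, edgeR). The groups did not overlap in FPKM for 11 of the 21 entries, beside 37.2% of all genes: CDH6, DAB2 and DPP4 were higher in OX-LDL (3 entries, beside 16.8%) and 8 were lower (beside 20.5%).

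A wider list of 115 other proximal tubule genes gave 69 that could be tested, of which 8 were called higher and 11 lower by edgeR, beside 7.91% and 7.42% of all genes, with a median log2 fold change of -0.10. Among its 18 solute carriers tested, the low-affinity glucose carrier SLC2A2 rose by 3.11 on the log2 scale from a Control level of 0.152 FPKM, and SLC26A6, an anion exchanger, by 0.56 on the log2 scale, while the amino acid carrier SLC7A7 fell by 0.78. The vitamin C carrier SLC23A1, named after its values were seen, was the third that rose (1.00). None of the 5 ABC exporters was called at the adjusted threshold by edgeR, while 1, the multidrug exporter ABCB1, had an unadjusted p under 0.05 and was called higher by DESeq2 (log2 fold change 0.26, adjusted p = 0.0723 by edgeR).

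Brush border genes of the wider list moved in both directions, while the pump and bicarbonate genes that were called all fell. The scaffold PDZK1, which anchors apical carriers, rose from 39.2 to 68.1 FPKM and ezrin, EZR, from 217.0 to 277.0 FPKM. ENPEP, aminopeptidase A, named after its values were seen, fell from 2.29 to 1.27 FPKM. Of the 7 sodium pump and bicarbonate genes tested, 3 fell, and 0 were called higher by edgeR at an adjusted or unadjusted p of 0.05 or by DESeq2 or limma: the pump subunit ATP1B1 from 228.7 ± 74.7 to 89.8 ± 19.5 FPKM (SD, n = 3 per group), its regulator FXYD2 from 30.7 to 16.7 FPKM, and the anion exchanger SLC4A2 from 21.6 to 16.1 FPKM.

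In endocytosis and vitamin handling, the vitamin D 24-hydroxylase CYP24A1 rose from 2.07 to 10.4 FPKM, and the lysosomal cystine exporter CTNS (7.02 to 3.63 FPKM) and the endosomal chloride exchanger CLCN5 (2.08 to 1.26 FPKM) fell, 3 of 9 tested. Of 8 metabolic genes tested, DDC, which makes dopamine, fell from 0.685 to 0.152 FPKM and MIOX, the renal myo-inositol oxygenase, from 13.5 to 7.18 FPKM, and 0 were called higher by edgeR, DESeq2 or limma, SORD having an unadjusted p under 0.05 (1 gene; log2 fold change 0.31). Of 15 factors and their partners tested, the peroxisomal enzyme EHHADH, which is no transcription factor, rose from 14.4 to 18.8 FPKM, and the nuclear receptor ESRRG fell from 0.200 to 0.0732 FPKM. The counts of the wider list, 8 and 11, were 4 and 6 with Control replicate 1 left out, 3 and 3 with Control replicate 2, 5 and 6 with Control replicate 3, 3 and 3 with OX-LDL replicate 1, and 3 and 2 with OX-LDL replicate 3 left out. They were 6 and 12 with OX-LDL replicate 2 left out.

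Markers of other kidney and blood cells were measured beside these genes. Of 44 such genes, 14 had no count in any library and 11 could be tested. The defining markers named here were at or near 0 in Control: UMOD of the loop of Henle, AQP2 of the collecting duct and PTPRC of leukocytes had 0 counts there, and SLC12A3 of the distal tubule, PECAM1 of endothelium and PDGFRB of pericytes were at 0.0448, 0.0448 and 0.0409 FPKM. KL, klotho, of the distal list, rose from 4.61 to 6.77 FPKM, and CLDN1, a claudin of the parietal epithelium list, fell from 485.6 to 132.8 FPKM. The summed level of the list of podocytes and parietal epithelium was 455.8 to 543.2 FPKM in Control and 129.3 to 138.0 FPKM in OX-LDL, most of it CLDN1. That of the leukocyte list was 3.13 to 7.79 and then 9.17 to 14.0 FPKM, most of it CD68, a lysosomal protein. The groups of CD68 did not overlap. It was not called by edgeR (log2 fold change 1.08, adjusted p = 0.0858) and was called higher by DESeq2. The distal list summed to 4.47 to 5.05 FPKM in Control and 6.46 to 7.21 in OX-LDL, most of it KL, the collecting duct list to 0.982 to 1.19 and 0.601 to 0.826 FPKM, and the list of the loop of Henle to at most 0.261 FPKM. GATA3 of the collecting duct list, without overlap between the groups, was not called by edgeR (log2 fold change -1.44, adjusted p = 0.0533) and was called lower by DESeq2. The summed levels of endothelium (at most 0.122 FPKM) and of fibroblasts and pericytes (8.77 to 14.1 FPKM, most of it LUM) overlapped between the groups. All 6 samples were HK-2 cultures, so these levels describe transcripts in cultures of that line. Any part of other cells in the changes of the tubule genes was not tested. Of the general epithelial genes, KRT8 (37.5 to 65.4 FPKM) and KRT19 (5.47 to 20.6 FPKM) rose, and EPCAM (51.2 and 53.1 FPKM) and CDH1 (0.0968 and 0.106 FPKM) were not called. KRT18 (39.4 and 58.3 FPKM), whose groups did not overlap, was not called by edgeR (adjusted p = 0.123) and was called higher by DESeq2. In bulk RNA of this kind, fewer cells that express a gene and less RNA per cell cannot be told apart.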

How the data were processed

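RNA-seq of HK-2 cells was analysed in 6 libraries, 3 Control and 3 OX-LDL, grouped by their labels. The authors deposited, for each of 58825 entries, an estimated count that was not scaled for library size and an FPKM value that the authors had scaled per kilobase and for library size, with a count of 0 listed at 0.0001 FPKM. The submitters' processing notes name GRCh38, cutadapt 1.9, HISAT2 2.0.4 and StringTie 1.3.4d, without the role of each; the strand setting of the counting is not given in the sources used here. The counts were whole numbers and entered the tests as they stood. The excess of entries at 4, 8 and 12 counts (3.26, 2.95 and 2.13 times their neighbours) was read as about 4 counts per read pair.

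The member genes, the wider list and the marker lists were chosen with earlier results of these data known. edgeR 4.0.16 (R 4.3.3) was run with TMM factors, glmQLFit and glmQLFTest on the group alone, over the 19510 entries whose mean reached 0.1 FPKM, and p-values were adjusted by Benjamini-Hochberg over all of them. Each SE was taken as the size of the log2 fold change over the root of F. Values per library are given for members past an adjusted p of 0.05, for those of at least 1 FPKM in Control and for 8 defining markers; of the wider list, at most 3 genes per role with the smallest p, and of each list of other cells the defining marker and at most 2 genes of the highest level. Compared in read pairs, libraries of 1 group gave a chi-square per gene of 13.0 to 22.4, far above sampling noise. Such a spread cannot tell separate cultures from separate preparations of 1 culture. Each library was counted as its own sample by its label. Alternatives were DESeq2 1.42.0, limma 3.58.1 on log2(FPKM + 0.1) and log2(FPKM + 1), library sizes only, a minimum of 1 FPKM, no minimum, TPM or other limits for the expressed genes, a replicate block and leaving out each library; the fits were tested on simulated data. Promoter windows were read from RefSeq on GRCh38.p14. Some genes that these rules select are not reported here.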

Additional observations from a re-analysis of the deposited data

How the results depend on the processing

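The number of members called at an adjusted p of 0.05 was 2 higher and 4 lower by edgeR. The higher count was 1 with library sizes only, with limma at a pseudocount of 0.1 or 1, with no minimum level and with the replicate block, and the lower count was 8 by DESeq2, which added PAX2, SLC5A2, SLC17A3 and CDH16. By fold and unadjusted p (1 higher, 4 lower), the lower count was 2 with limma at either pseudocount and with a minimum of 1 FPKM, and the higher count was 2 with the replicate block. Over all genes, DESeq2 called 2292 higher and 2138 lower and the replicate block 854 and 782, against 1543 and 1448 in the main fit. The added DESeq2 calls among the members thus came with more calls over all genes. The wider list (8 higher, 11 lower) gave 14 higher by DESeq2 and 4 higher and 4 lower with the block, and the markers of other cells (1 and 1) gave 2 and 2 by DESeq2. The cause was not tested.

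Leaving out 1 library gave 1 to 2 members higher and 1 to 4 lower, by fold and p 1 to 2 higher and 2 to 4 lower, over all genes 619 to 1473 higher and 537 to 1470 lower, in the wider list 3 to 6 higher and 2 to 12 lower, and among markers of other cells 0 to 2 higher and 1 lower. Each such fit has fewer samples. The number of members expressed in Control was 15 in each. No called member changed sign. The fitted difference of SLC17A1 ranged from -0.35 to 0.12, above 0 when Control replicate 3 (0.12) or OX-LDL replicate 1 (0.02) was left out, and 0.05 for OX-LDL replicate 3. That of SLCO4C1 ranged from -0.38 to 0.0213, above 0 when Control replicate 1 (0.0169) or OX-LDL replicate 1 (0.0213) was left out.

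Same-numbered libraries did not deviate together (r = -0.041, -0.0031 and 0.0356 over genes), and the labels give them no more than a shared number. Such correlations over all genes cannot show that a pairing is absent. With the replicate block the log2 fold changes of DAB2 (0.38) and SLC20A2 (-0.42) were as in the main fit, though their calls were lost. The block lowered the SE of PAX8 from 0.24 to 0.12 and raised those of DAB2 and SLC20A2 to 0.10 and 0.12. Depth limits the 18 genes under the minimum, of at most 46 counts.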
